A study of Mus musculus with 66 samples.

Results

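The regions described here are acetylated distal regions rich in Hnf4g: 164 of the 94469 open or marked regions of mouse small intestinal organoids. They were chosen from the deposited region scores by 4 conditions. The mean of the 9 H3K27ac libraries was in the top 15% of all regions (a mean score of at least 23.0), the mean of the 9 H3K4me3 libraries was not in the top 30%, the mean of the 9 H3K27me3 libraries was not in the top 10%, and the EN library of Hnf4g ChIPmentation held 20 or more reads. A further 84 regions met the histone conditions with fewer than 20 EN Hnf4g reads and are called Hnf4g-poor below. Of 14193 regions in the top 15% for H3K27ac, 278 were outside the top 30% for H3K4me3, so the 164 regions are a small and selected group. The organoids are described in the study's methods as Lgr5 GFPDTR/+, an allele with GFP and the diphtheria toxin receptor at Lgr5, in all 3 cultures alike. ENR is the regular medium with EGF, Noggin and R-Spondin-1. CV adds CHIR99021 (3 µM), a GSK3 inhibitor that activates Wnt signalling, and valproic acid (1 mM), an inhibitor of histone deacetylases. EN leaves out R-Spondin-1, which amplifies Wnt signalling. By the paper's methods the organoids were kept longer in CV medium than in EN medium. Time in the medium thus cannot be told apart from its content. ATAC-seq and RNA-seq had 4 libraries per culture, each histone mark 3 and Hnf4g 1.

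Enhancers are stretches of DNA, often far from any gene start, where transcription factors bind and raise transcription of genes on the same chromosome. Their flanking nucleosomes carry H3K27ac when they are active, H3K4me3 is the mark of active promoters, and H3K27me3 is laid down by Polycomb at silent genes. Hnf4g (hepatocyte nuclear factor 4 gamma) is a nuclear receptor that binds as a dimer, together with its close relative Hnf4a, at enhancers of genes that enterocytes use to take up nutrients. ATAC-seq cuts DNA where it is free of nucleosomes, so a higher score means a more accessible region.

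The cultures were checked against cell markers in the RNA. The summed level of 6 enterocyte markers was 5756 to 6021 CPM (counts scaled to a common library size) in the CV libraries, 6783 to 7482 in ENR and 39707 to 41340 in EN. The 6 stem cell markers summed to 489 to 550 in CV, 1733 to 1882 in ENR and 39.2 to 44.5 in EN. A sum follows its most abundant markers and is not a count of cells. Lgr5 mRNA alone was at 85.2 to 94.0 CPM in CV, 124 to 136 in ENR and 0.642 to 2.28 in EN. The paper describes CV as enriched in stem cells, from Lgr5-GFP imaging and from stem cell markers in its mRNA and protein data. The RNA sum of the 6 markers and the Lgr5 mRNA given here were lower in CV than in ENR, which differs from that description. In the same order of cultures, 4 tested goblet cell markers summed to 855 to 948, 1806 to 1954 and 7850 to 8655. Other cell types differed between the cultures as well. From CV to EN, 2 tested enteroendocrine markers went from 8.76 to 11.6 to 616 to 1105 CPM, the 2 tuft cell markers from 0.539 to 2.41 to 55.9 to 74.4, and 3 tested Paneth cell markers from 2304 to 2579 to 950.0 to 1126. The paper reports its goblet, enteroendocrine and tuft cell markers Muc2, Reg4 and Dclk1 as not enriched in EN over ENR. The goblet, enteroendocrine and tuft sums given here, each over more than 1 marker, were higher in EN than in ENR. Outside the epithelium, 3 tested fibroblast markers went from 3.45 to 4.72 in CV to 20.9 to 26.3 in EN, and 2 tested immune markers reached at most 3.89. In bulk samples a change in the share of cells of a type and a change within each cell cannot be told apart, and the part of cell makeup in the results below was not tested. Hnf4g mRNA was at 117 to 128 CPM in CV, 357 to 378 in ENR and 1285 to 1522 in EN. The Hnf4a transcript with the highest mean count was at 705 to 740, 701 to 722 and 693 to 720 CPM. The paper reports the canonical Hnf4a transcript as not dynamic and a different Hnf4a isoform as strongly lower after enterocyte differentiation.

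The 164 regions lay on 20 chromosomes. Their median width was 502.5 bp against 220 bp for all regions. The median distance from the middle of a region to the nearest start site of any annotated transcript was 16955.5 bp, against 19441 bp for the Hnf4g-poor regions and 9095 bp for all regions on chromosomes. Within 500 bp of a start site lay 3 of them (1.83%), against 16.9% of all regions. Of the 164, 87 (53.0%) were intergenic, 70 (42.7%) lay in introns and 7 (4.27%) in exons. The Hnf4g-poor regions were more often in introns, 52 of 84 (61.9%), with 28 (33.3%) intergenic. The rule kept out regions high in H3K4me3, so the distance from start sites is in part a product of the choice. The median GC content was 48.3% in both groups and 49% in all regions. Most of the 164 stood alone, with 142 having no other member within 50 kb and 22 falling into 10 groups, the largest of 4.

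Sequences are shown for the regions that the results below return to. Each is read from the mm9 genome on the plus strand, 5′ to 3′, and capitals mark letters of the HNF4 site. The first 4 are the regions with the exact letters CAAAGTCCA or CAAAGGTCA (on either strand) that had the most EN Hnf4g reads, a choice made after the letters were counted. They lie 39844 bp upstream of AU015836 (chrX:91174205-91174304), 53952 bp upstream of Atp11b (chr3:35598991-35599090), in an intron 4730 bp downstream of the start of Elmod3 (chr6:72540235-72540334) and 64395 bp downstream of the start of Ints7 (chr1:193464088-193464187):
AU015836: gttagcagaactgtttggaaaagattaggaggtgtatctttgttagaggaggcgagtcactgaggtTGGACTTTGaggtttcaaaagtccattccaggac
Atp11b: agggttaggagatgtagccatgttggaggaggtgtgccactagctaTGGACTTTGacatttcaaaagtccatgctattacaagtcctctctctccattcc
Elmod3: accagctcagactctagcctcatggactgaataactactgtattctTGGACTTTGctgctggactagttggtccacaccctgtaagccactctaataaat
Ints7: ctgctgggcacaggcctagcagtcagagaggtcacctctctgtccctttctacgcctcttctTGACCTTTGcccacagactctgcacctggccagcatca

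The AU015836 and Atp11b stretches above share much of their sequence on both sides of the marked letters. Whether both belong to a repeated element of the genome was not tested. The next set lies beside genes named for their role in enterocytes. The region in an intron of Vil1 (chr1:74481379-74481478) holds the exact letters. The regions in an intron of Slc15a1 (chr14:121870924-121871023), downstream of the start of Hnf4a (chr2:163400299-163400398) and upstream of Acsl5 (chr19:55322472-55322571) match only with 2 free positions, CAAAGNNCA, a looser search added after the data were seen:
Vil1: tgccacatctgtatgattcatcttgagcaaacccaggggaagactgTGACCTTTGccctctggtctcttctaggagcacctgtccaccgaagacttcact
Slc15a1: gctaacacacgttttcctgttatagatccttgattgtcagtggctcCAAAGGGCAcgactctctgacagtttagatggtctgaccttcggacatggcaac
Hnf4a: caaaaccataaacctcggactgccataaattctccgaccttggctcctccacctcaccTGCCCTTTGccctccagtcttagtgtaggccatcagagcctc
Acsl5: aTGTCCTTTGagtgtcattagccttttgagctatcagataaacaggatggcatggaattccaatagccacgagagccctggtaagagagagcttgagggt

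Letters of transcription factor sites were searched on both strands in the 300 bases around the middle of each region. The exact HNF4 letters were in 19 of 164 Hnf4g-rich regions (11.6%), 2 of 84 Hnf4g-poor regions (2.38%) and 4124 of all 94334 windows (4.37%). With 2 free positions, which takes in the exact letters, the shares were 25.6%, 17.9% and 14%. For the GATA letters AGATAAG they were 9.15%, 2.38% and 7.21%, and for the AP-1 letters TGANTCA 23.2%, 19% and 17.2%. The CDX2 letters TTTATNG were in 20.1%, 22.6% and 16.5%, the KLF letters CCACCC in 22%, 25% and 26.6%, the TCF letters CTTTGAT in 5.49%, 3.57% and 5.57%, and the FOXA letters TGTTTAC in 6.1%, 10.7% and 5.3%. The letters of HNF1, a palindrome with a free middle position, were in no window of either acetylated group and in 0.0382% of all windows. Of the sets searched, the exact HNF4 letters had the highest ratio of the share in the Hnf4g-rich regions to that in all regions. Among the 103 regions higher in ATAC in EN than in CV, 15 held them (14.6%), against 9.1% of all regions called higher, among the 11 called lower 2 did (18.2%, against 2.59% of all regions called lower), and among the 50 with no ATAC call 2 did (4%). These shares describe the regions, and no difference between them was tested.

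**Figure D1:**
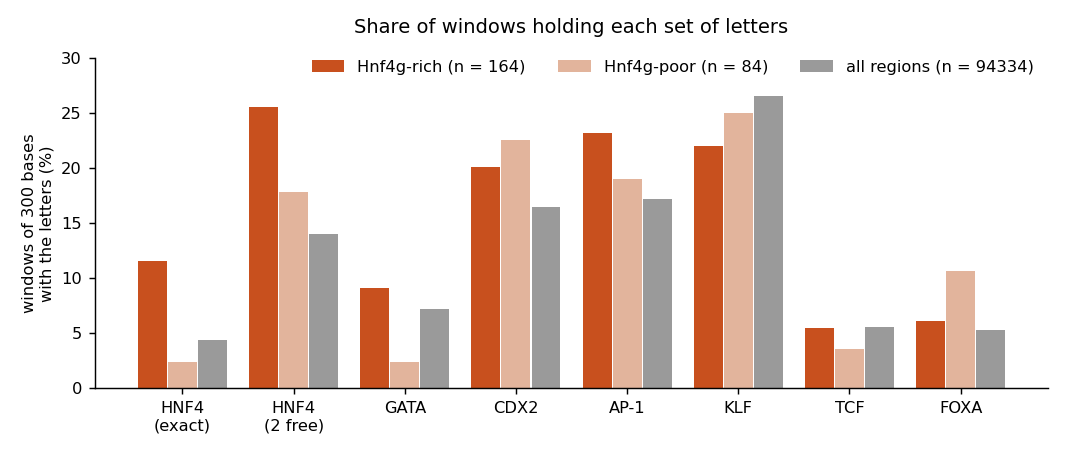
Share of 300-base windows (%, vertical axis) that hold each set of letters on either strand, for the 164 Hnf4g-rich regions, the 84 Hnf4g-poor regions and all 94334 windows. The exact HNF4 letters were in 11.6%, 2.38% and 4.37%, the KLF letters in 22%, 25% and 26.6%, and the TCF letters in 5.49%, 3.57% and 5.57%.

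Hnf4g reads were counted in 1 library per culture, so they carry no replicate error, and no test was made. The EN reads chose the regions. In EN they ranged from 20 to 176 per region with a median of 39.5. The CV and ENR libraries were not used for the choice. They are much shallower, with 84340 and 352600 reads in regions against 1816497 in EN, and 20 EN reads correspond to 0.929 reads in CV and 3.88 in ENR. The Hnf4g-rich regions held 361 CV reads, which is 0.428% of that library (exact binomial 95% interval 0.385 to 0.474%), and 1185 ENR reads, 0.336% (0.317 to 0.356%), while they make up 0.225% of the bases covered. Per kilobase these are 4.31 reads in CV and 14.1 in ENR, against 2.27 and 9.47 over all regions and 1.27 and 6.79 over the Hnf4g-poor regions. In the libraries that did not choose them the Hnf4g-rich regions thus held more reads per kilobase than all regions, and the Hnf4g-poor regions fewer. The paper's methods state that PCR duplicates were removed and that reads were sequenced in pairs. If both reads of a pair were counted they are not independent, so the intervals, which describe counting alone, may be too narrow. Single regions cannot be ranked in CV, where 67 of the 164 had no read, or well in ENR, where 13 had none.

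The 5 regions with the most EN Hnf4g reads differed widely in the other libraries. The region 43964 bp downstream of the start of Slc34a2, a phosphate carrier (chr5:53493174-53493545), had 176 EN reads, 36 ENR reads and 25 CV reads. It was the region with the most EN reads, and its CV count far exceeded the number that its EN reads would give at the depth of the CV library. An intronic region of Ergic2, a protein of vesicle traffic between the endoplasmic reticulum and the Golgi (chr6:148134060-148134773), had 137 EN reads with 6 in ENR and 2 in CV. A region 8184 bp from the start of Lcn12 (chr2:25340474-25341062), a lipocalin, had 121, 9 and 0. The intronic region of Slc15a1 (chr14:121870704-121871308) had 107, 30 and 2, and an intronic region of Gm9234 (chr7:128147439-128147941) had 106, 5 and 3.

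Accessibility of the Hnf4g-rich regions was highest in EN. The median ATAC score over the 164 regions was 22, 23, 20.5 and 22 in CV libraries 1 to 4, 33.5, 35, 32.5 and 33.5 in ENR and 39, 45, 39 and 52 in EN. The 3 cultures did not overlap, and EN library 4 stood highest. The Hnf4g-poor regions had medians of 23 to 27.5 (CV), 27 to 33 (ENR) and 20 to 25 (EN), with EN overlapping CV and below ENR. Over all regions the medians were 5 to 6 in every library. The plot of medians by library sets the 3 groups side by side.

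**Figure D2:**
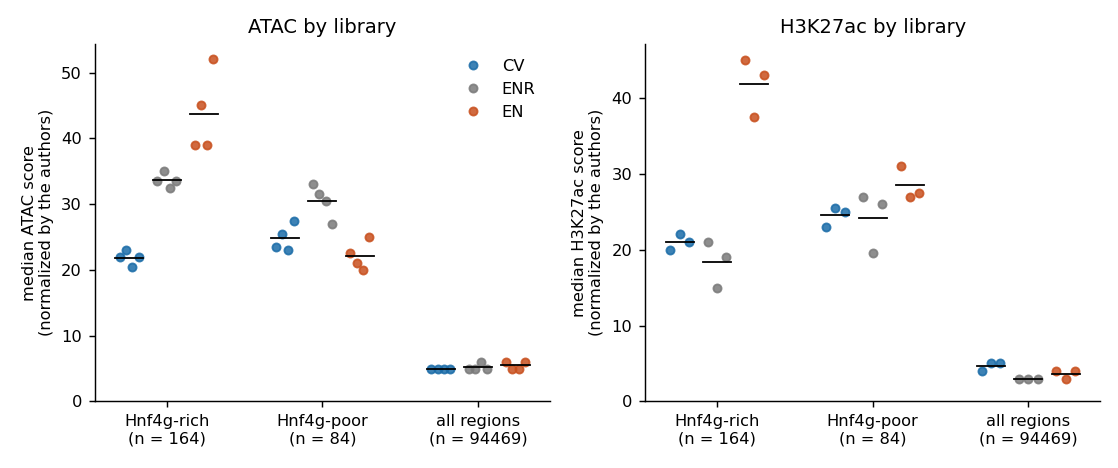
Median score over the regions of a group (vertical axes, in the authors' normalized units) for ATAC (left) and H3K27ac (right), with 1 point per library, a line at the mean of the libraries, and colours for CV, ENR and EN. In the Hnf4g-rich regions the ATAC medians rise from 20.5 to 23 in CV to 39 to 52 in EN, while in the Hnf4g-poor regions the EN medians are 20 to 25. H3K27ac was used to choose both groups.

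Each region was compared between cultures with limma on log2(score + 1), in a fit of all 12 ATAC libraries across 94166 regions and at an adjusted p under 0.05. Between EN and CV, 103 of the 164 Hnf4g-rich regions were higher in EN (62.8%) and 11 were lower, with a median difference of 0.92 (log2). Of all regions tested, 19.6% were higher in EN and 15.6% lower, with a median of 0.05. With libraries scaled to the same total the split over all regions turned from 18480 higher and 14675 lower to 14481 and 19578. The Hnf4g-poor regions went the other way more often, with 20 of 84 higher and 30 lower. Among the 19782 other regions with 20 or more EN Hnf4g reads, 33.2% of those tested were higher and 12.5% lower. Reads of the EN culture chose the regions, and the part of that choice in the direction cannot be told apart from the culture. Without each library in turn, 96 to 107 of the 164 were higher and 9 to 12 lower.

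Against ENR, 76 regions were higher in EN (46.3%) and 18 lower, where 11.6% and 12.5% of all regions were. Between CV and ENR, 3 were higher in CV and 62 lower (37.8%), where 5.11% and 10.7% of all regions were. Among the other regions with 20 or more EN Hnf4g reads, 19.6% were higher in EN than in ENR and 10.5% lower. Between CV and ENR, 4.98% of those were higher in CV and 16.8% lower. Of the 84 Hnf4g-poor regions, 10 were higher in EN than in ENR and 27 lower, and 6 were higher in CV than in ENR and 18 lower. The comparisons share libraries, so they are not independent of each other. In 72 of the 164 regions (43.9%) EN was called higher than both CV and ENR, as in 9.44% of all tested regions. Without reference to the test, all 4 EN scores were above all CV scores in 99 regions (15.6% of all regions), below them in 9 (11.9%), and above both other cultures in 60 (8.21%). In 24 (14.6%) the 12 ATAC scores rose from CV to ENR to EN with no overlap between any of the cultures, as in 1.99% of all regions and in 2 of the 84 Hnf4g-poor regions. In 13 (7.93%) ENR was above both other cultures without overlap (3.36% of all regions), and in 32 (19.5%) no comparison was called, as in 31% of the Hnf4g-poor and 56.2% of all regions.

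**Figure D3:**
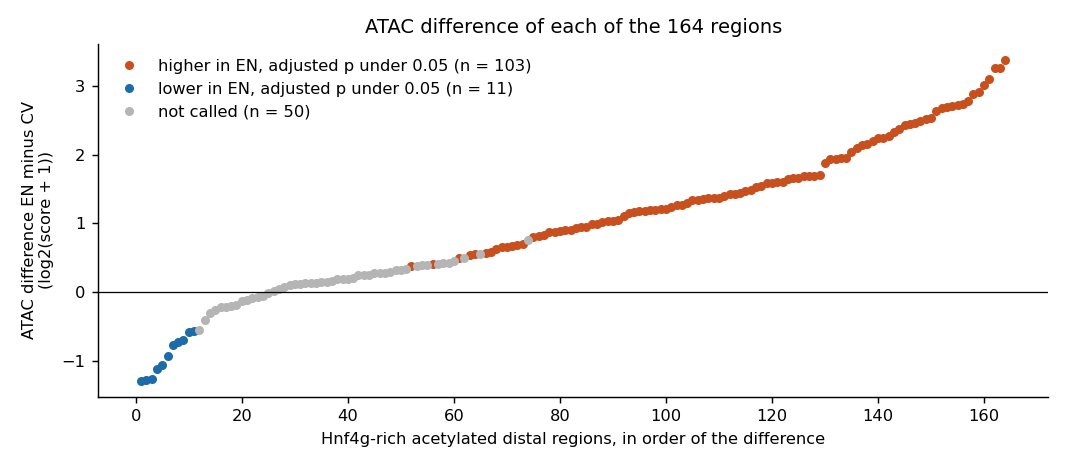
Difference in ATAC between EN and CV (vertical axis, log2(score + 1)) for each of the 164 Hnf4g-rich regions in ascending order, coloured by the limma call at an adjusted p under 0.05. The values run from -1.29 to 3.38, with 103 regions called higher in EN, 11 called lower and 50 not called.

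The ATAC difference is set beside the EN Hnf4g reads as a description only, since the reads chose the regions and the regions share libraries. In 4 sets of 41 regions, from the fewest reads (20 to 29) to the most (60 to 176), 20, 23, 31 and 29 were higher in EN than in CV and 4, 4, 0 and 3 lower, with median differences of 0.57, 0.67, 1.18 and 1.29. Spearman's rank correlation over the 164 regions was 0.26. At the threshold itself, the 6 regions with exactly 20 reads had a median difference of 1.32, and the 2 Hnf4g-poor regions with 19 reads had -1.07. Taking 20 to 24 reads inside and 15 to 19 outside, the medians were 0.84 for 25 regions and 0.56 for 18.

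The 5 largest rises in ATAC from CV to EN, among called regions whose values did not overlap, were all above 3 on the log2 scale. The largest lay 3086 bp upstream of 9030617O03Rik (chr12:102013911-102014451), with scores of 5, 5, 7 and 5 in CV, 19, 26, 27 and 25 in ENR and 81, 63, 49 and 76 in EN. The difference was 3.38 (log2, limma adjusted p = 1.63e-09). The region 34234 bp downstream of the start of Gm1574 (chr13:46403006-46403643) scored 3, 5, 5 and 6 in CV, 14, 21, 11 and 14 in ENR and 52, 46, 50 and 67 in EN (3.27, limma adjusted p = 1.15e-08). The Ergic2 region, the second by EN Hnf4g reads, scored 11, 11, 9 and 12 in CV, 34, 51, 46 and 56 in ENR and 100, 92, 109 and 154 in EN (3.27, limma adjusted p = 1.14e-09). In each of these regions ENR lay between the other cultures, and no library of one culture reached another's.

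An intronic region of Stard13 (chr5:151882581-151883167) scored 3, 4, 6 and 6 in CV, 12, 15, 17 and 11 in ENR and 33, 50, 50 and 60 in EN (3.11, limma adjusted p = 3.42e-08). The region 59185 bp upstream of Mocs1 (chr17:49508138-49508867), an enzyme of molybdenum cofactor synthesis, scored 8, 9, 16 and 3 in CV, 14, 15, 15 and 19 in ENR and 71, 65, 70 and 77 in EN (3.02, limma adjusted p = 4.72e-07). CV and ENR overlapped there, though CV was called lower than ENR (-0.91, limma adjusted p = 0.0435). The larger step was between ENR and EN (2.11, limma adjusted p = 5.77e-05). The 4 regions printed with exact HNF4 letters were all called higher in EN than in CV. That beside AU015836 scored 16, 15, 10 and 15 in CV, 38, 50, 48 and 42 in ENR and 70, 87, 101 and 110 in EN, a difference of 2.63. Those near Atp11b, Elmod3 and Ints7 differed by 2.27, 2.10 and 2.91. The Atp11b region was already at 39, 54, 55 and 57 in ENR, overlapping EN at 80, 39, 49 and 82.

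**Figure D4:**
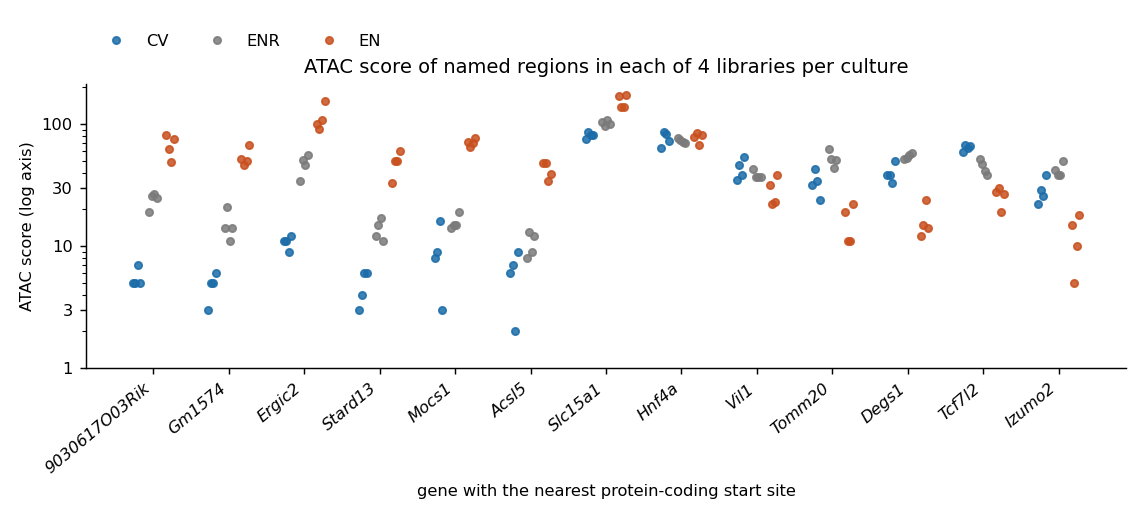
ATAC score (vertical log axis) of 13 named regions that reached a score of 10 in at least 1 library, in each of the 4 libraries per culture, ordered by the difference between EN and CV and labelled by the nearest gene. The first 6 regions sit at 2 to 16 in CV and at 33 to 154 in EN, the Hnf4a region is level across the cultures, and the 4 on the right are lower in EN than in CV without overlap.

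Among the 9 regions called lower in EN than in CV without overlap, the largest fall lay 13512 bp downstream of the start of Izumo2 (chr7:51977337-51977913), where scores were 22, 29, 26 and 38 in CV, 42, 38, 38 and 50 in ENR and 15, 5, 10 and 18 in EN (-1.29, limma adjusted p = 0.00127). In an intron, 27461 bp upstream of the nearest start of Tcf7l2 (chr19:55940121-55940641), the transcription factor that carries the Wnt signal in intestinal stem cells, scores were 59, 67, 64 and 66 in CV, 52, 47, 41 and 38 in ENR and 28, 30, 19 and 27 in EN (-1.29, limma adjusted p = 5.08e-06). This is the 1 region of the 164 in which scores fell from CV to ENR to EN without overlap (0.87% of all regions). Its window holds the AP-1 letters at 2 positions. The AP-1 letters were in 5 of the 11 regions called lower and in 22 of the 103 called higher, where 25.5% of all regions called lower and 16.8% of all called higher held them.

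The region 25885 bp downstream of the start of Degs1 (chr1:184186148-184186792), a ceramide desaturase, scored 38, 38, 33 and 50 in CV, 52, 53, 56 and 58 in ENR and 12, 15, 24 and 14 in EN (-1.27, limma adjusted p = 4.31e-05). A region 119319 bp from the start of Tomm20 (chr8:129350245-129350564) scored 32, 43, 34 and 24 in CV, 62, 52, 44 and 51 in ENR and 19, 11, 11 and 22 in EN (-1.07, limma adjusted p = 0.0011). Both were highest in ENR.

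H3K27ac chose these regions through the mean over all 9 libraries, so its level and its differences are given as a description. The median score over the 164 regions was 20, 22 and 21 in the CV libraries, 21, 15 and 19 in ENR and 45, 37.5 and 43 in EN. The mean passed the cut of 23.0 in EN alone, with both other cultures under it, in 73 regions. In CV 69 regions passed it, in ENR 43, in EN 155 and in all 3 cultures 16. The CV libraries were grown with a deacetylase inhibitor, which cannot be told apart from the rest of that culture. By the same limma fit, as a description and not a test of these regions, 45 regions were higher in EN than in CV and 1 lower (5.07% and 1.96% of all regions), 31 higher than in ENR and 0 lower (1.22% and 0.353%), and 1 was higher and 1 lower in CV than in ENR (0.541% and 1.29%). For EN below ENR, 2 of the 164 regions had an unadjusted p under 0.05. Among the 19782 other regions with 20 or more EN Hnf4g reads, 19.9% were higher in EN than in CV and 2.81% lower, against 27.4% and 0.61% of the 164. Against ENR, 4.47% of those other regions were higher in EN and 1.15% lower. Of the 84 Hnf4g-poor regions, 9 were higher in EN than in CV and 10 lower, and 3 were higher than in ENR and 5 lower. Of the 45, 34 were among the 73 that passed the cut in EN alone and 11 among the 91 that passed it in CV or ENR. With libraries scaled to the same total, 21 regions were higher in EN than in CV and 17 higher than in ENR, and over all regions the split between EN and CV turned from 4780 higher and 1847 lower to 2556 and 3250. With quantile normalization 7 were higher in EN than in ENR, and over all regions that split turned from 1147 and 333 to 290 and 419. With a spread estimated without its trend on the mean, 7 regions were higher in EN than in CV and none was called in the other comparisons or directions. Without 1 library at a time, 14 (EN library 4) to 38 were higher in EN than in CV and 3 (EN library 2) to 44 higher than in ENR. Of the 91 regions whose H3K27ac mean passed the cut in CV or in ENR, 52 (57.1%) were higher in ATAC in EN than in CV and 9 lower, and of the 73 that passed in EN alone, 51 (69.9%) and 2.

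The regions with the largest H3K27ac differences passed the cut in EN alone, so the choice by the mean favoured a high EN level in them. The Mocs1 region had scores of 2, 3 and 1 in CV, 16, 8 and 11 in ENR and 76, 58 and 68 in EN (4.56). An intronic region of Dynlt1b (chr17:6444980-6445291), a dynein light chain, scored 8, 5 and 24 in CV, 21, 19 and 26 in ENR and 96, 76 and 93 in EN (3.01). An intronic region of Wwox (chr8:117710098-117710720) scored 2, 15 and 17, then 24, 10 and 13, then 73, 84 and 55 (2.89). All of these were higher in ATAC in EN than in CV as well. The 1 called fall lay 10524 bp downstream of the start of Rad54b (chr4:11546766-11547326), a protein of homologous recombination, with 38, 36 and 30 in CV, 39, 27 and 9 in ENR and 7, 17 and 8 in EN (-1.70). In the Tcf7l2 region, where ATAC fell, the H3K27ac difference was not called, with 27, 13 and 28 in CV and 58, 50 and 48 in EN (1.23, limma adjusted p = 0.0932), and neither was that in the Tomm20 region, with 42, 20 and 44 in CV and 80, 57 and 80 in EN (1.08, limma adjusted p = 0.0761). Over the 164 regions, Spearman's rank correlation between the ATAC and the H3K27ac difference from CV to EN was 0.36.

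The other marks, which the rule held low, are given for completeness. For H3K4me3, limma called 0 of 164 regions higher or lower in EN than in CV (2.75% and 2.15% of all regions), with 6 and 1 at an unadjusted p under 0.05. It called 3 higher and 0 lower in EN than in ENR (5.48% and 0.7%), with 39 and 0 at an unadjusted p under 0.05, and 0 either way between CV and ENR (1.1% and 0.027%), with 22 and 0. For H3K27me3 it called 0 in each comparison. The shares of all regions were 0.14% higher and 0.388% lower in EN than in CV, 0% and 0.0127% in EN than in ENR, and 0.207% and 0.532% in CV than in ENR. The members at an unadjusted p under 0.05 were 5 and 2, 25 and 0, and 19 and 0.

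A gene was assigned to a region where its protein-coding start site was the nearest and lay within 50 kb. Of the 164 regions, 125 (76.2%) had such a gene, giving 122 genes. RNA was tested for 76 of them. The deposited table holds 9481 transcripts, and genes without one in it were not tested. The paper's methods state that, for matching with the proteome, transcripts were restricted to those quantified as protein. An untested gene thus need not lack RNA. The nearest gene need not be the one a region acts on. By edgeR's quasi-likelihood test, at an adjusted p under 0.01 and a difference of at least 2-fold, 33 of the 76 genes were higher in EN than in CV (43.4%) and 6 lower (7.89%), with a median difference of 0.87 (log2). Of all 8821 genes tested, 15.3% were higher and 20.5% lower, with a median of -0.08. Against ENR, 30 were higher in EN and 3 lower (13.2% and 17.3% of all genes). Between CV and ENR, 5 were higher in CV and 11 lower (6.93% and 6.2%). Of the 50 tested genes nearest to Hnf4g-poor regions, 14 were higher in EN than in CV and 5 lower. With start sites within 10 kb only, 12 of the 25 genes tested were higher in EN than in CV (48%) and 1 lower.

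RNA and ATAC calls were set side by side. With 1 region per gene, the one nearest to its start, 19 of the 43 genes beside a region higher in ATAC were higher in RNA and 4 lower. Of the 28 beside a region with no ATAC call, 11 were higher and 2 lower, and of the 5 beside a region lower in ATAC, 3 were higher and 0 lower. Over the 76 genes, which share their libraries, Pearson's r between the differences was -0.01.

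**Figure D5:**
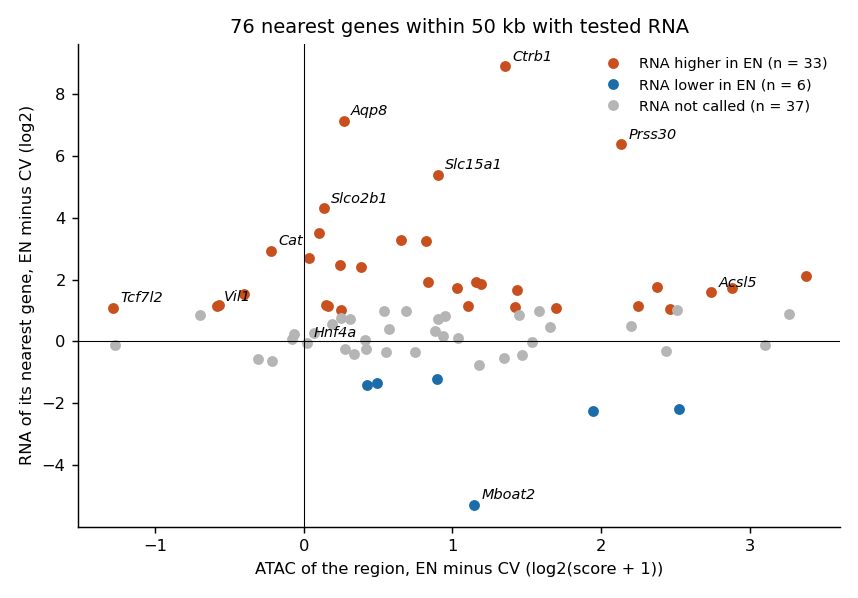
RNA difference of the nearest gene within 50 kb (vertical axis, EN minus CV, log2 from edgeR) against the ATAC difference of the region (horizontal axis, EN minus CV, log2(score + 1)) for 76 genes, coloured by the RNA call. The 33 genes called higher spread over regions with large and with no ATAC difference, and the 6 called lower lie at 0.43 or more in ATAC and at -1.21 or less in RNA.

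The nearest genes with the largest rises, singled out after their values were seen, included carriers and secreted enzymes. Slc15a1, the carrier that takes up short peptides at the brush border, was at 10.9, 10.7, 11 and 12.5 CPM in CV, 50.8, 38.1, 38.7 and 46.9 in ENR and 441, 463, 520 and 485 in EN (5.40, edgeR adjusted p = 1.92e-16). Its region, whose sequence is printed above, scored 76, 87, 82 and 81 in ATAC in CV, 105, 96, 109 and 101 in ENR and 169, 137, 138 and 172 in EN (0.90, limma adjusted p = 3.46e-06). It was thus open in CV, where the mRNA was low. Aqp8, a water channel, was at 1.69 to 2.94 CPM in CV and 298 to 357 in EN (7.13), and its region did not differ in ATAC by the test (0.27). Slco2b1, an organic anion carrier, was at 9.54 to 12.5 in CV and 204 to 224 in EN (4.30), with a region at 0.13 in ATAC. Ctrb1, a chymotrypsinogen, had at most 2 counts in any CV library and was at 65.2 to 74.0 CPM in EN, at least 161-fold higher than a floor of 3 counts per library. Prss30, a serine protease, had at most 3 counts in CV and was at least 56.7-fold higher than that floor in EN. Their regions were called higher in ATAC, by 1.35 and 2.14. Plbd1 (3.5), Slc43a2 (3.28), an amino acid carrier, and Gsdmd (3.25), the pore-forming gasdermin D, rose as well, with regions at 0.10 (no call), 0.65 and 0.82 (both called higher) in ATAC. Cat, catalase, was at 166 to 177 CPM in CV and 1254 to 1349 in EN (2.93), with a region at -0.22 in ATAC and no call.

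Slc34a2, nearest to the region with the most Hnf4g reads, was at 4.67 to 7.14 CPM in CV, 6.22 to 7.90 in ENR and 32.1 to 44.4 in EN (2.70), while its region did not differ in ATAC between EN and CV (0.04). 9030617O03Rik, beside the largest ATAC rise, was at 39.9 to 42.3 CPM in CV, 57.2 to 64.1 in ENR and 174 to 183 in EN (2.11). Stard13 was at 41.9 to 45.7 in CV and 38.1 to 42.6 in EN, with no call (edgeR adjusted p = 0.153), although its region was among the largest ATAC rises. Ergic2 was at 74.2 to 83.7 in CV and 135 to 152 in EN, a difference of 0.90 that missed the 2-fold limit. Of the 6 genes called lower, from which the next were also picked after their values were seen, Mboat2, an acyltransferase of phospholipid synthesis, fell from 79.6 to 94.5 CPM in CV to 1.58 to 2.95 in EN (-5.28) and was as low in ENR, at 2.13 to 3.34. Chaf1a, a subunit of the factor that assembles chromatin behind the replication fork, was at 24.9 to 27.4 in CV and 5.17 to 6.83 in EN (-2.20), while its region rose in ATAC by 2.53.

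Of 19 landmark genes of the intestinal epithelium that were looked up, 3 had a Hnf4g-rich region within 50 kb: Slc15a1, Vil1 and Hnf4a. In all, 268 protein-coding genes had one. Counting only the gene nearest to a region, 122 genes were nearest to a Hnf4g-rich region within 50 kb, and 17200 to some region of the series. Vil1 encodes villin, an actin-bundling protein of microvilli. Its region (chr1:74481180-74481534), in an intron 11097 bp from the start, had 25 EN Hnf4g reads and scored 35, 46, 38 and 54 in ATAC in CV, 43, 37, 37 and 37 in ENR and 32, 22, 23 and 38 in EN. It was lower in EN by 0.59 (limma adjusted p = 0.0183), but the cultures overlapped and the call was lost when CV library 2 or 4 or EN library 2 or 3 was left out, with differences of -0.55, -0.48, -0.48 and -0.50. Vil1 mRNA was at 1004 to 1053 CPM in CV and 2102 to 2290 in EN (1.13, edgeR adjusted p = 1.78e-13). The region 24429 bp downstream of the start of Hnf4a (chr2:163399946-163400550) had 64 EN Hnf4g reads. It scored 64, 87, 83 and 73 in ATAC in CV, 77, 74, 71 and 70 in ENR and 78, 84, 67 and 81 in EN. Neither this region (0.02, limma adjusted p = 0.926) nor the Hnf4a transcript used (-0.05, edgeR adjusted p = 0.153) passed its test between EN and CV. Other Hnf4a transcripts are not described here.

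Genes of 7 lists that describe the epithelium were set beside the regions. Of 22 genes of fat absorption, 20 were tested in RNA. Between EN and CV, 17 rose and 1 fell, and 1 had a Hnf4g-rich region within 50 kb. This was Acsl5, which activates fatty acids, at 1135 to 1253 CPM in CV, 732 to 761 in ENR and 3445 to 3811 in EN (1.60, edgeR adjusted p = 9.25e-15). Its region lay 5238 bp upstream (chr19:55322449-55322794), had 97 EN Hnf4g reads against 1 in ENR and 0 in CV, and scored 6, 7, 2 and 9 in ATAC in CV, 8, 13, 9 and 12 in ENR and 48, 48, 34 and 39 in EN (2.74, limma adjusted p = 1.55e-06). The Acsl5 region and the Acsl5 mRNA were thus both highest in EN, though the mRNA was lower in ENR than in CV. Of 24 brush border genes, 20 of 23 tested were higher and 0 lower, and Vil1 had a region. Of 20 nutrient carriers, 14 of 19 tested were higher and 2 lower, and Slc15a1 and Slc34a2 had one.

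Of 26 lineage transcription factors, 9 of 21 tested were higher and 1 lower, and Hnf4a had a region. Of 20 Wnt and stem cell genes, 1 of 17 tested was higher and 16 lower. The 1 that was higher, Tcf7l2, was also the 1 with a Hnf4g-rich region. Its mRNA was at 8.31 to 11.9 CPM in CV, 12 to 17.2 in ENR and 20.6 to 27.5 in EN (1.10, edgeR adjusted p = 3.39e-06), the opposite direction to the ATAC of its region. Without CV library 4 or EN library 3 the difference was 0.99 or 1.00, under the 2-fold limit. No gene of the 16 of proliferation (15 of 16 tested lower) or of the 23 of secretory cells (12 of 18 tested higher, 3 lower) had a Hnf4g-rich region within 50 kb. The lists hold few of the 164 regions, and most genes of fat absorption and the brush border that were higher in EN had none. Since only 268 genes had a Hnf4g-rich region within 50 kb, 0 or 1 in a list of this size says little about the list. A Hnf4g-poor region lay within 50 kb of 1 brush border gene and 1 nutrient carrier, and of no gene of the other lists.

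Tomm20, a subunit of the import receptor of mitochondria, was the gene nearest to the most members, with 5 regions 97726 to 170863 bp from its start that spanned 73575 bp. One of the 5 was higher in ATAC in EN than in CV and 1 lower. Its mRNA fell from 636 to 671 CPM in CV to 234 to 275 in EN (-1.39, edgeR adjusted p = 1.71e-13), but all 5 regions lay beyond the 50 kb used to assign genes. The 12 other genes nearest to more than 1 member had 2 each. Of these, the 2 regions of Fbln1, a matrix protein, lay 26051 and 26801 bp from its start, and Fbln1 mRNA was at 26.4 to 38.0 CPM in CV and 149 to 175 in EN (2.39). The pairs of Acer1, Hs1bp3, Ints7, Nsmce2 and Ttc7b were higher in ATAC in EN than in CV in both regions, whereas neither region of Elovl6, which elongates fatty acids, was called. Of the genes of those pairs with tested RNA, Hs1bp3 fell by 1.09, Ints7 differed by -0.66 and Nsmce2 by -0.43. Both regions of Hs1bp3 and of Ints7 and 1 of those of Nsmce2 also lay beyond 50 kb.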

How the data were processed

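Mouse small intestinal organoids in CV, ENR and EN were profiled by ATAC-seq, ChIPmentation and RNA-seq, and 54 of 66 listed libraries were used. Samples were grouped by their labels. The submitters' processing notes name BWA, Picard, MACS2 2.0, DESeq2, kallisto 0.43.0 and mm9. For ATAC and the histone marks the authors deposited normalized scores per region, rounded to whole numbers, so no count model was used. H3K27me3 scores were taken over regions extended to 1000 bp. The Hnf4g values are counts of reads, deposited without normalization. For RNA they deposited expected counts and TPM from kallisto, and spike-in scaled copy numbers, which were not used.

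Scores were compared with limma 3.58.1 (trend on the mean, all libraries of a dataset, pseudocount 1, regions above 0 in at least 3 libraries, Benjamini-Hochberg adjustment), and rounded expected counts with edgeR 4.0.16 (TMM, 1 transcript per gene, above 0 in at least 4 libraries) in R 4.3.3. Alternatives changed the pseudocount, filter, scaling, trend, block, samples, threshold and, for RNA, the tool (DESeq2 1.42.0, or limma on TPM). Ties at the cuts, the cultures that carry the H3K27ac mean and the looser HNF4 letters were varied after the data were seen. Annotation and sequence came from GENCODE vM1 on NCBIM37 (mm9), and gene names were matched through RefSeq symbols and synonyms (119 of 122 nearest genes). The members, gene lists and tests were chosen with earlier results of these data known. Region coordinates are as deposited. Named regions are the 5 with the most EN Hnf4g reads, the 5 largest ATAC rises and falls and the 3 largest H3K27ac rises and falls from CV to EN among called regions without overlap, and those nearest to landmark genes; named genes are the nearest to those regions, the genes nearest to most members, and list genes. A result that falls under this rule is not reported here.

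Library totals were 1752385 to 2109261 for ATAC scores, 1345873 to 1760511 for H3K27ac, 817265 to 1100967 for H3K4me3, 1010511 to 1327017 for H3K27me3 and 5630951 to 8859744 expected counts. On simulated data, 200 regions changed 2-fold and 4-fold between EN and CV were found in 90% and 100% of cases for ATAC and 16.5% and 86% for H3K27ac, and 200 transcripts changed 4-fold in 94%. False calls numbered 19 and 18 for ATAC, 2 and 3 for H3K27ac and 2 for RNA. The changed regions were drawn only from those with higher mean scores, so the rates do not cover regions with low scores. The labels do not say that replicates came from separate cultures or animals, so p-values measure the spread between these libraries, which may be technical. For some labels further histone libraries are listed that are not analysed here, nor is the Hnf4g knockout.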

Additional observations from a re-analysis of the deposited data

Results flagged for a closer look

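In 183 groups of 4 libraries (named regions in ATAC, named genes in RNA and the medians over the regions), 11 had 1 library far from the other 3 relative to the range of the group, where chance gives about 1 in 20. In ATAC these were CV library 3 at 7 in the region near 9030617O03Rik, and ENR library 1 at 43 in the region near Vil1. In RNA they were Ergic2 in CV (83.7 CPM), Vil1 in EN (2102 CPM), Hnf4a in ENR (722 CPM), Fbln1 in CV (38.0 CPM), Irf2bp2 in ENR (382 CPM), Chaf1a in EN (6.83 CPM), Mapre3 in ENR (0.126 CPM) and in EN (3.03 CPM), and Lgr5 in EN (0.642 CPM). The CV values of Ergic2 and Fbln1 and the Hnf4a values in ENR overlapped those of another culture.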

How the results depend on the processing

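Counts of ATAC-called regions stayed within 1.5 times under the other pseudocount, filter, scalings and block and with only the 2 cultures compared. Small counts moved under other settings. At an adjusted p under 0.01, lower in EN than in CV fell to 7 and than in ENR to 10, and higher in CV than in ENR to 1. Without the trend the last 2 were 11 and 0. With each library left out, ATAC higher in CV than in ENR ranged from 1 to 4, lower from 46 to 72, and EN lower than ENR from 11 (without ENR library 4) to 19. Higher in CV than in ENR was 1 without CV library 2 or 4 or ENR library 3 or 4. With 40 or more Hnf4g reads 3.66% of members were lower in EN than in CV and 2.44% than in ENR. With members at the H3K27ac cut in CV or ENR, 17.6% were lower in EN than in ENR and 3.3% higher in CV than in ENR, the last 1.05% with ties at the cuts counted the other way (190 members).

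H3K27ac counts depended on the fit, and the cause was not tested. EN higher than CV (45) became 21 with libraries scaled to the same total, 7 without the trend, 18 with only the 2 cultures compared, 16 at an adjusted p under 0.01 and 14 to 38 with a library left out, being 28, 15, 22 and 14 without CV library 5 and EN libraries 2, 3 and 4. EN higher than ENR (31) became 7 with quantile normalization, 17 with scaled totals, 0 without the trend, 9 at the stricter threshold, 3 to 44 with a library left out (20, 6 and 8 without ENR libraries 1, 2 and 4, and 3, 7 and 6 without EN libraries 2, 3 and 4) and 30.5% of members with 40 or more Hnf4g reads. The single regions called in the remaining comparisons went to 0 or 3 (scaled totals, CV higher than ENR) under several settings, ranged from 0 to 1 with a library left out, and were 0% or 1.22% with 40 or more reads. H3K4me3 lower in EN than in CV ranged from 0 to 2 with a library left out, the 2 without EN library 4. Scaled totals moved the median EN minus CV difference of all regions from 0.05 to -0.09 for ATAC and from -0.14 to -0.33 for H3K27ac.

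With the replicate number as a block, ATAC counts were 106 and 11 (EN against CV), 81 and 18 (EN against ENR) and 4 and 74 (CV against ENR), RNA counts 33 and 6, 30 and 3, and 5 and 11, and all H3K27ac counts 0. Deviations of same-numbered libraries correlated at 0.07 to 0.46 for ATAC (8 of 12 pairs above 0.1), -0.05 to 0.04 for H3K27ac and -0.06 to 0.10 for RNA, and since not every pair was above 0.1 in any of these, the numbers were not taken to pair the libraries.

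For RNA, EN higher than CV (33) became 21 with limma on log2(TPM + 1). With start sites within 10 kb, higher and lower counts were 12 and 1 (EN against CV), 12 and 1 (EN against ENR) and 1 and 3 (CV against ENR), and with no minimum fold 51 and 16, 54 and 10, and 24 and 31. With a library left out, they ranged from 32 to 36 and stayed at 6 in EN against CV. Of 80 results on single regions and genes none changed direction with a call. In 55 of their alternatives a call was lost and in 14 gained, mostly for H3K27ac.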
